A study of Drosophila melanogaster with 12 samples.

Results

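Cytochrome P450s are heme enzymes that insert an oxygen atom from molecular oxygen into small, mostly fat-soluble molecules, and in insects they act on dietary toxins and insecticides, on fatty acids and on the steroid hormone ecdysone. Most sit in the endoplasmic reticulum and take electrons from a reductase or from cytochrome b5, while the Cyp12 enzymes are mitochondrial and are served by ferredoxins. In larvae, the fat body, the midgut and the Malpighian tubules, which excrete and detoxify, are known sites of P450 expression. The genes described here are those whose platform symbol begins with Cyp followed by a digit, each read from the probe set with the highest mean over all arrays. The rule found 65 genes among the 7442 genes with 1 symbol in the main table of 9669 probe sets, out of 83 such symbols on the array. Of the 65, Cyp1 and Cyp40 are cyclophilins, which fold proteins and only share the letters, so the counts below are over the other 63. These 63 are 17 Cyp4 genes, 20 Cyp6 genes, 5 Cyp12 genes and 21 P450s of other subfamilies. The remaining 18 symbols on the array have no probe set of their own in the main table.

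RNA was taken from Drosophila melanogaster larvae of 4 groups and hybridised to 12 one-colour Affymetrix arrays, 3 per group. Control larvae carried precise excisions of the P-elements EP2449 and KG08976 in trans, and larvae labelled mutant carried the alleles HNF4(del33) and HNF4(del17) in trans. HNF4 is a fatty-acid-binding nuclear receptor of the gut, fat body and tubules, and the design looks for its targets by mutation. Both genotypes ate a normal diet until late L2 and were then fed or starved for 24 h on wet paper, and healthy-looking animals that had reached L3 were used. The age label of all groups is mid-L3, and the labels do not say whether the triplicates came from separate cultures, so p-values measure the spread between these samples, which may be technical. A level is a normalized probe set intensity on a linear scale, called an expression value below. A difference is on the log2 scale with the standard error of the limma fit, and was called where its p-value, adjusted over all 9669 probe sets, was under 0.05.

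Array medians lay between 483 and 552, and Pearson's r between arrays of the same group was 0.968 to 0.994 across all probe sets. Hnf4 had expression values of 1327, 1207 and 1228 in control fed arrays and 1641, 1540 and 1482 in mutant fed arrays. It had values of 1736, 1818 and 1937 in control starved and 2784, 2938 and 3190 in mutant starved arrays. No array of the labelled mutants was below a control array of its diet, and the difference was called in starved larvae. Where these probes lie with respect to the deleted bases is not known here, so Hnf4 gives no check of the genotypes, and "mutant" below means labelled mutant. Whole larvae hold many tissues: the fat body lipoprotein apolpp had values of 13672 to 23810 and the midgut trypsin betaTry of 16847 to 23416 over the 12 arrays, and the tubule marker Uro was not measured here.

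The fed arrays of a group were not alike in their P450 values. In control fed replicate 3, 42 of 63 P450s had the lowest value of the group, against 32.4% of all probe sets. In mutant fed replicate 2, 43 of 63 had the lowest value of that group, against 30.2% of all probe sets. The same arrays were low in Lsp2, a storage protein that the fat body makes in the third instar, with values of 18373, 16372 and 290.4 in control fed and 13857, 328.5 and 780 in mutant fed arrays. They were also low in mag, a gut lipase, at 11172, 7660 and 2362 in control fed and 7808, 2069 and 4682 in mutant fed arrays. The median coefficient of variation of a P450 between replicates was 17.1% in control fed and 13.7% in mutant fed larvae, against 10.8% and 8.0% over all probe sets. In starved groups it was 7.36% in controls and 12.4% in mutants, against 6.11% and 7.69%. Counts of calls are therefore also given without these arrays.

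**Figure D1:**
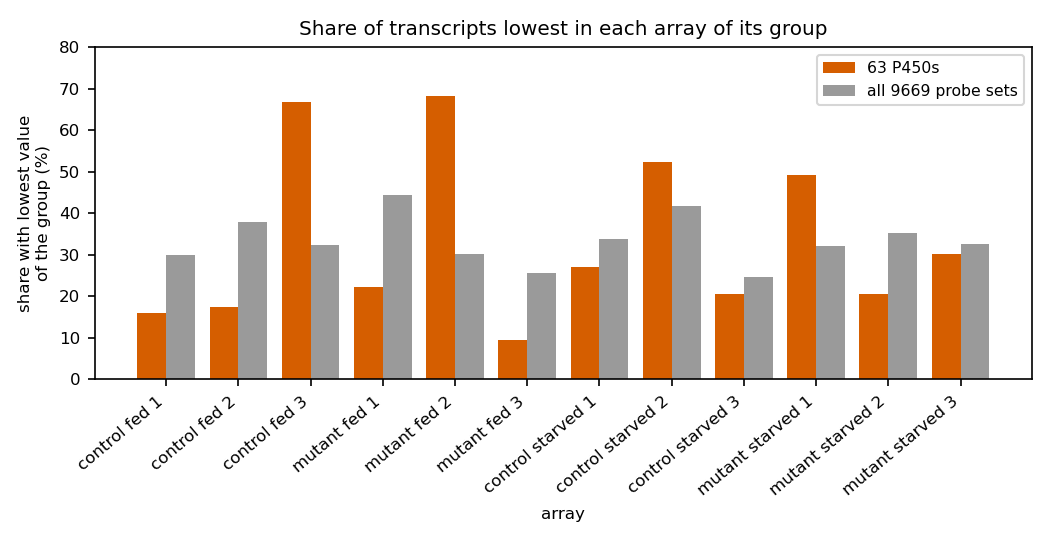
Share of the 63 P450s (orange bars) and of all 9669 probe sets (grey bars) that had the lowest value of their group in a given array, in percent, for the 12 arrays. The highest bars are those of the P450s in control fed replicate 3 (66.7%) and mutant fed replicate 2 (68.3%).

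More P450s were called between diets than between genotypes, as was so for the array as a whole. Between genotypes, 2 of 63 P450s were called in fed larvae (3.17%, against 1.05% of all probe sets) and 15 in starved larvae (23.8%, against 7.61%). Between diets 40 were called in each genotype (63.5%), against 68.2% of all probe sets in controls and 75.7% in mutants, so the share of P450s called between diets was no higher than that of all probe sets. The median log2 difference over the 63 was -0.0035 between genotypes in fed larvae and 0.0745 in starved larvae, against -0.0053 and -0.0123 over all probe sets. It was 0.323 between diets in controls and 0.515 in mutants, against 0.0309 and -0.0423 over all probe sets. In bulk RNA, fewer cells of a type and less RNA per cell cannot be told apart.

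**Figure D2:**
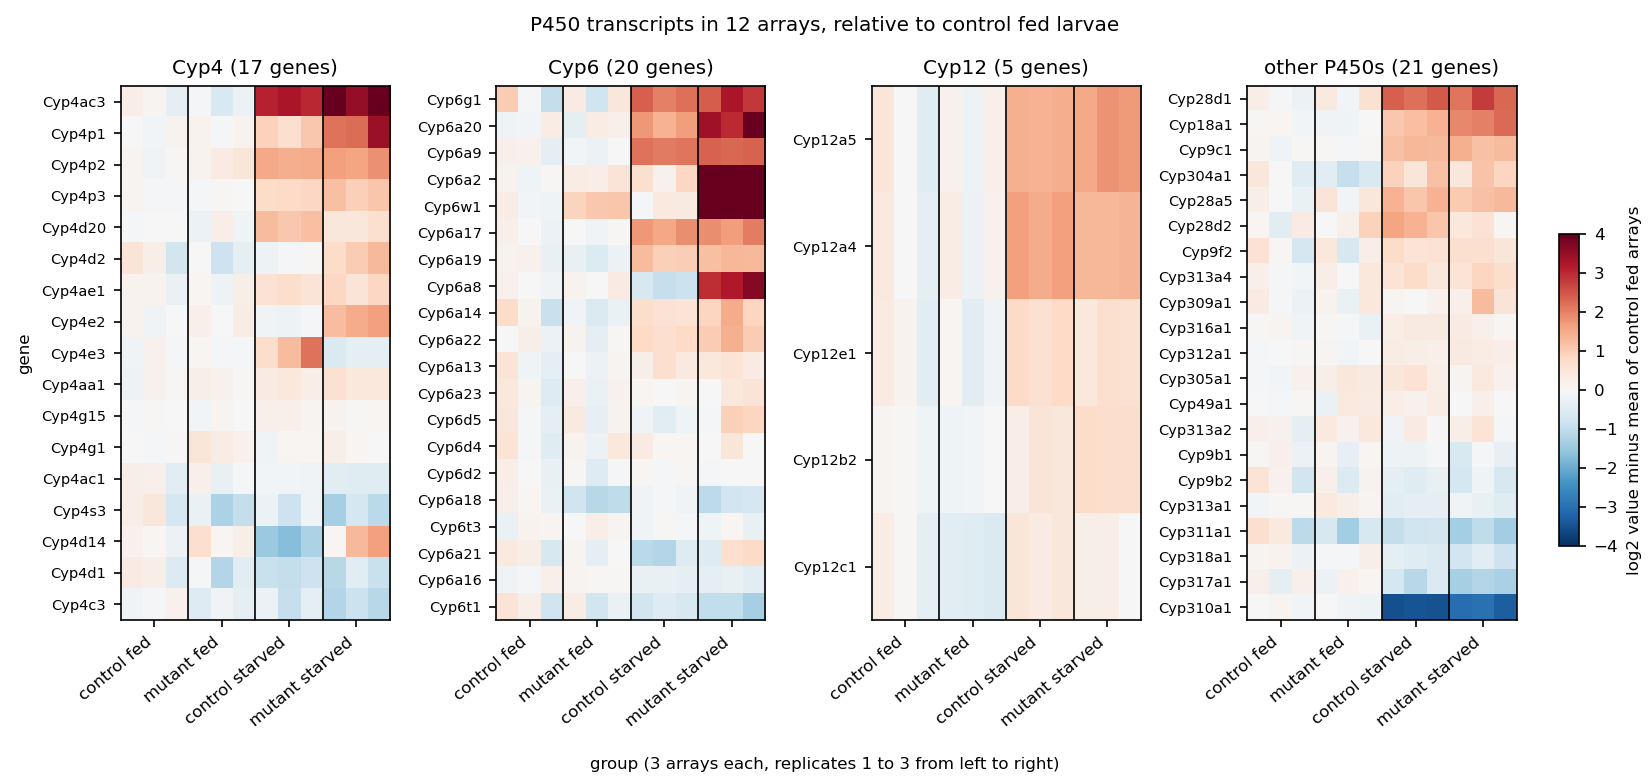
Log2 expression value of each of the 63 P450s in each of the 12 arrays minus its mean in the control fed arrays, in colour (red higher, blue lower), with genes in rows by subfamily and arrays in columns by group. Cyp6a2, Cyp6a8 and Cyp6w1 are dark red in the mutant starved arrays alone, and Cyp310a1 is dark blue in both starved groups.

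The comparison of genotypes in fed larvae asked which transcripts depend on HNF4 when food is present. It called 1 P450 higher and 1 lower, both of the Cyp6 subfamily, where 0.186% of all probe sets were called higher and 0.869% lower. Cyp6w1 had values of 704, 534 and 508.5 in controls and 1058, 1217 and 1255 in mutants. All mutant values lay above all control values, a 2.04-fold difference (log2 1.03 ± 0.16, adjusted p = 0.0102). Cyp6a18 had values of 978, 894 and 715 in controls and 493, 398 and 420 in mutants, again without overlap and in the other direction (log2 -0.97 ± 0.13, adjusted p = 0.00347). The call of Cyp6w1 ended without control fed replicate 2 (adjusted p = 0.0582), mutant fed replicate 2 (0.0515) or mutant fed replicate 3 (0.0631), with differences of log2 0.97, 1.00 and 0.98. That of Cyp6a18 ended in the series matrix, the other deposited table of the same arrays, and with the fed arrays fitted alone.

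None of the 17 Cyp4, 5 Cyp12 and 21 other P450s was called in fed larvae by limma, where 3, 1 and 4 of them had an unadjusted p under 0.05. Without control fed replicate 3 the count of called P450s was 5, with Cyp12c1, Cyp311a1 and Cyp6a19 added as lower in mutants. Without that array and mutant fed replicate 2 it was 3, with Cyp6a18, Cyp12c1 and Cyp311a1 lower and none higher. Cyp12c1 had values of 1408, 1164 and 891 in controls and 851, 819 and 752.5 in mutants, which did not overlap, at log2 -0.49 ± 0.14 (adjusted p = 0.192 with all arrays).

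The comparison of genotypes in starved larvae asked the same of animals without food. Of 63 P450s, 11 rose (17.5%) and 4 fell (6.35%), where 3.91% of all probe sets were called higher and 3.70% lower. By subfamily, 5 of 17 Cyp4, 4 of 20 Cyp6 and 2 of the 21 other P450s rose, and 2, 1 and 1 fell. No Cyp12 gene among the 5 counted was called by limma, with 1 of 5 at an unadjusted p under 0.05. The probe set shared by Cyp12d1-d and Cyp12d1-p, outside these counts, was called higher (log2 2.74, adjusted p = 0.00272). Of the 11 that rose, 10 were not called in fed larvae, where only 0.186% of all probe sets were called higher. A missing call in fed larvae is thus no sign that a rise depended on diet. The difference between the genotypes' responses to starvation, tested below, was not called for Cyp4d2, Cyp4ac3 and Cyp310a1 (adjusted p = 0.0827, 0.0788 and 0.0908). Without control fed replicate 3 the count of P450s called in starved larvae was 17, with Cyp12b2 and Cyp6a21 added, and without both fed arrays low in most P450s it was 19. Fed arrays do not enter the differences of this comparison, so leaving them out changed only the shared estimate of the spread and the p-values.

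The Cyp6 rises were led by 3 genes. Cyp6w1 had values of 556, 751.5 and 734 in starved controls and 12456, 12703 and 16548 in starved mutants. Cyp6a8, known to respond to barbiturates and caffeine, had values of 679, 562 and 586 in starved controls and 8290, 9841 and 13514 in starved mutants. Cyp6a2, long studied for its part in insecticide resistance, had values of 426, 309 and 481.5 in starved controls and 5157, 4387 and 7847 in starved mutants. In each of these genes all starved mutant arrays lay far above all starved control arrays. The differences were 20.4-fold for Cyp6w1 (log2 4.35 ± 0.16, adjusted p = 5.75e-08), 17.0-fold for Cyp6a8 (4.09 ± 0.17, 1.17e-07) and 14.1-fold for Cyp6a2 (3.82 ± 0.21, 6.53e-07).

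Cyp6a20, known for its influence on aggression in male flies, was the fourth Cyp6 gene that rose. Its values were 804, 625.5 and 763.5 in starved controls and 2522, 1913 and 3689 in starved mutants, a 3.59-fold rise (log2 1.84 ± 0.24, adjusted p = 0.000986). Cyp6a21 lay at 426, 396 and 623 in starved controls and at 627, 1426 and 1531 in starved mutants. These values did not overlap, but the difference missed the threshold (log2 1.23 ± 0.35, adjusted p = 0.0589). Cyp6d5 had values of 3879, 3169 and 3766 in starved controls and 3987, 8250 and 7692 in starved mutants, at log2 0.82 ± 0.29 (adjusted p = 0.121), with replicate 1 of the mutants near the controls.

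Among the Cyp4 genes, a subfamily known in other animals for oxidising the end of fatty acid chains, 5 rose in starved mutants. Cyp4d14 had values of 255, 219 and 300.3 in starved controls and 761, 1782 and 2254 in starved mutants (log2 2.50 ± 0.33, adjusted p = 0.00106). Cyp4p1 had values of 572, 481 and 633 against 1378, 1424 and 3340 (log2 1.75 ± 0.27, adjusted p = 0.00302). Cyp4e2 had values of 4155, 3979 and 4320 against 10790, 12742 and 14439 (log2 1.60 ± 0.12, adjusted p = 1.02e-05). In all 3 genes every starved mutant array exceeded every starved control array, and the mutants differed among themselves more than the controls did.

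Cyp4d2 and Cyp4ac3 rose by less. Cyp4d2 had values of 722, 807 and 862 in starved controls and 1372, 1693 and 2030 in starved mutants (log2 1.08 ± 0.29, adjusted p = 0.0475). Cyp4ac3 had values of 2329, 2674 and 2241 against 4723, 3193 and 4377 (log2 0.75 ± 0.20, adjusted p = 0.0435). Neither call was stable. That of Cyp4d2 ended when any of 8 of the 12 arrays was left out (all 6 starved arrays among them), and that of Cyp4ac3 when any of 7 was, with adjusted p from 0.0576 to 0.176.

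Outside these subfamilies, Cyp18a1 and Cyp310a1 rose in starved mutants. Cyp18a1, the 26-hydroxylase that inactivates ecdysone and its active form, had values of 1212, 1322 and 1501 in starved controls and 2174, 2324 and 2768 in starved mutants (log2 0.85 ± 0.11, adjusted p = 0.000957). Its second probe set gave 599, 583 and 677 against 1022, 848 and 1138 (log2 0.69 ± 0.12, adjusted p = 0.00507), so both probe sets of this gene were called in the same direction. Cyp310a1 was dim in both starved groups, at 88.8, 92.7 and 89.3 against 122, 128 and 102.5, and its rise of log2 0.37 (adjusted p = 0.0400) was lost with the starved arrays fitted alone and when any of 7 arrays was left out.

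Of the 4 P450s that fell in starved mutants, Cyp4e3 fell by most. Cyp4e3, a gene of the Malpighian tubules tied to insecticide tolerance, had values of 401, 598.5 and 1125 in starved controls and 167, 190 and 195 in starved mutants (log2 -1.82 ± 0.28, adjusted p = 0.00259). All 3 starved mutant values lay under 250.46, the lowest 25th percentile of any array, below which a probe set is called dim here. Cyp28d2 had values of 2564, 2219 and 1820 in starved controls and 1130, 1279 and 870 in starved mutants (log2 -1.01 ± 0.26, adjusted p = 0.0400). Its groups did not overlap, yet its call ended when any of 7 arrays was left out, with adjusted p from 0.0513 to 0.160.

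Cyp6a18 lay at 775, 816 and 774 in starved controls and at 416, 498 and 532 in starved mutants, and was the 1 P450 lower in mutants on both diets (log2 -0.72 ± 0.13 in starved larvae, adjusted p = 0.0072). Cyp4d20 lay at 377, 327 and 361 against 213, 212 and 240 (log2 -0.68, adjusted p = 0.00573), with mutants in the dim range. By chromosome arm, the rises were 6 of 26 members on 2R, 3 of 11 on X, 2 of 9 on 2L, 0 of 5 on 3L and 0 of 12 on 3R, and the falls were 2 on 2L, 1 on 3L and 1 on 3R. The share of all probe sets called on each arm was not computed, so no pattern by arm can be read from these counts.

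The comparison of diets in controls described the response to 24 h without food with HNF4 intact. It called 30 P450s higher (47.6%) and 10 lower (15.9%), where 36.1% of all probe sets were called higher and 32.1% lower. In mutants 32 rose (50.8%) and 8 fell (12.7%), where 37.5% of all probe sets were called higher and 38.3% lower. The share of P450s called higher was thus above that of all probe sets in both genotypes and the share called lower was below it. In both genotypes 27 P450s rose and 6 fell, and 17 were called in neither genotype. The matching shares of all probe sets were not computed, so nothing particular to P450s can be read from these joint counts. The starvation contrasts of controls and of mutants share no arrays, only the estimate of the spread. Without control fed replicate 3, 41 P450s were called in controls (27 higher and 14 lower): Cyp12c1, Cyp316a1, Cyp4c3 and Cyp6a2 lost their call, and Cyp311a1, Cyp4ac1, Cyp4s3, Cyp6t1 and Cyp9b2 gained it. Without that array and mutant fed replicate 2 the same counts held in controls, and 44 were called in mutants (32 higher and 12 lower).

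All 5 Cyp12 genes counted here rose on starvation in both genotypes in the main table, with a median log2 difference of 0.727 in controls and 0.812 in mutants. The probe set shared by Cyp12d1-d and Cyp12d1-p, left out because it carries 2 symbols, was not called in controls (log2 0.72, adjusted p = 0.149). In mutants it was called higher (log2 3.39, adjusted p = 2.87e-05). Cyp12a4, tied to insecticide resistance in the fly, had values of 2603, 1951 and 1501 in control fed and 6075, 5477 and 6193 in control starved arrays (log2 1.59 ± 0.18, adjusted p = 2.34e-05). In mutants it went from 2420, 1672 and 2225 to 4967, 4969 and 5066 (log2 1.27 ± 0.18, adjusted p = 7.84e-05). Its neighbour Cyp12a5 rose by log2 1.42 in controls and 1.61 in mutants, Cyp12e1 by 0.73 and 0.71, Cyp12b2 by 0.41 and 0.81, and Cyp12c1 by 0.41 and 0.65. The rise of Cyp12c1 in controls was log2 0.24 without control fed replicate 3 (adjusted p = 0.0856), an array low in this gene, and its call ended in 6 further settings. The rises of Cyp12e1 were not called in the series matrix (log2 0.61 and 0.63, adjusted p = 0.0918 and 0.0785). Cyp12b2 was dim in 3 of 4 groups.

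The largest rises on starvation were those of Cyp4ac3. It had values of 336, 297 and 213 in control fed and 2329, 2674 and 2241 in control starved arrays, 8.69-fold higher (log2 3.12 ± 0.20, adjusted p = 4.80e-07). In mutants it went from 267, 183 and 238 to 4723, 3193 and 4377, 17.8-fold higher (log2 4.16 ± 0.20, adjusted p = 3.33e-08). Fed and starved values were far apart in both genotypes, but the mutant fed values are dim and the series matrix gave log2 4.92 in mutants, so the size of this rise is uncertain. Cyp28d1, of a subfamily linked to plant alkaloids, went from 1585, 1270 and 1125 to 6905, 6091 and 7231 in controls (log2 2.36 ± 0.21) and from 1722, 1212 and 2018 to 5822, 9184 and 6472 in mutants (2.12 ± 0.21). Cyp6a9 went from 708, 692 and 470 to 2754, 2600 and 2703 in controls (log2 2.13 ± 0.14) and rose by 2.46 ± 0.14 in mutants.

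Cyp6g1, the gene behind DDT resistance in many fly populations, showed the spread of the fed arrays plainly. Its values were 1112, 516 and 282.5 in control fed and 687, 312.5 and 750 in mutant fed larvae, and 2879, 2226 and 2532 and 2894, 5225 and 3836 in the starved groups. Starved and fed values did not overlap in either genotype (log2 2.21 ± 0.45 in controls and 2.83 ± 0.45 in mutants, adjusted p = 0.00131 and 0.000181). Cyp6a17, known for its role in temperature preference, rose by log2 1.71 ± 0.13 and 1.89 ± 0.13. Other rises in both genotypes were those of Cyp4p2 (log2 1.49 in controls and 1.38 in mutants), Cyp9c1 (1.26 and 1.30) and Cyp28a5 (1.30 and 0.90).

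Cyp310a1 fell by most on starvation. Its values were 998, 1098 and 934 in control fed and 88.8, 92.7 and 89.3 in control starved arrays, 11.2-fold lower (log2 -3.48 ± 0.10, adjusted p = 3.68e-09). In mutants it went from 1005, 916 and 884 to 122, 128 and 102.5 (log2 -3.00 ± 0.10, adjusted p = 6.09e-09). The starved values are dim, so the size of the fall is uncertain. The other P450s that fell in both genotypes were Cyp4c3, Cyp6a16, Cyp313a1, Cyp317a1 and Cyp318a1, with differences of log2 -0.32 to -1.27. Cyp318a1 went from 210, 215 and 258 to 130, 163 and 125 in mutants (log2 -0.71 ± 0.13), in the dim range. Cyp4c3 went from 640.1, 828 and 710 to 411, 504 and 428 in mutants (log2 -0.70 ± 0.17, adjusted p = 0.00323). The fall of Cyp4c3 in controls was log2 -0.51, and -0.30 without control starved replicate 2 (adjusted p = 0.0793).

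For Cyp317a1 and Cyp6a16 the deposited tables went opposite ways. Cyp317a1 had values of 810, 538 and 809 in control fed and 431.5, 326 and 469 in control starved arrays of the main table. In the series matrix it had 118.9, 169.1 and 95.0 in control fed and 366.1, 280.3 and 282.0 in control starved arrays. The called difference was log2 -0.81 in the main table and 1.31 in the other (adjusted p = 0.00226 and 0.00391), and in mutants -1.27 and 1.14. Cyp6a16 was called lower in both genotypes in the main table (log2 -0.32 and -0.42) and had positive differences that were not called in the series matrix (0.58 and 0.96). The direction of these 2 genes on starvation is therefore not settled.

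Of the P450s called in 1 genotype alone, Cyp28d2, Cyp305a1 and Cyp4e3 rose and Cyp4d1, Cyp4d14 and Cyp6a21 fell in controls, while Cyp4d2, Cyp4e2, Cyp6a14 and Cyp6w1 rose and Cyp4ac1 and Cyp6t1 fell in mutants. Whether a response differed between genotypes is answered by the test of the difference itself, given below, and not by these calls. Cyp4d1 had values of 5196, 4816 and 2807 in control fed and 2238, 2115 and 2325 in control starved arrays, and the call of its fall (log2 -0.89 ± 0.29, adjusted p = 0.0172) ended without control fed replicate 1 or 2. Cyp6a21 had values of 1171, 1058 and 579 in control fed larvae and fell on starvation by log2 -0.92 ± 0.35 (adjusted p = 0.0359). Its fed and starved values overlapped, and its call ended in the series matrix (adjusted p = 0.12), with the replicate block (0.0566), with array weights (0.0587) and without control fed replicate 1 or 2 or control starved replicate 1 or 2 (0.0926 to 0.121). Cyp6t1 went from 370.3, 183 and 253 to 154, 154 and 120.5 in mutants and was called lower at log2 -0.86 ± 0.31, and at -0.60 without mutant fed replicate 1 (adjusted p = 0.112).

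The 17 P450s called in neither genotype on starvation included genes with known developmental roles. Cyp4g1, the oenocyte enzyme that makes cuticular hydrocarbons, had values between 3058 and 4729 in all 12 arrays, with log2 differences of -0.00 ± 0.10 in controls and -0.21 ± 0.10 in mutants. In the series matrix it was called lower in mutants (log2 -0.44, adjusted p = 0.0113), and the call in mutants was also gained with median centring and without mutant fed replicate 3 or mutant starved replicate 1. The oenocyte markers FASN3, FarO and spidey all fell on starvation in both genotypes (3 of 3, median log2 -0.846 in controls and -1.11 in mutants), where 32.1% and 38.3% of all probe sets were called lower. Cyp6t3, which takes part in ecdysone synthesis, was dim in all 4 groups, at 154 to 225. In all, 6 P450s were dim in every group, namely Cyp6t3, Cyp312a1, Cyp313a1, Cyp313a2, Cyp316a1 and Cyp318a1.

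The difference between the genotypes' responses to starvation was tested directly. In 8 of 63 P450s (12.7%) the change on starvation was more positive in mutants and in 1 (1.59%) more negative, where 1.82% of all probe sets were called higher and 0.765% lower. By subfamily these were 3 higher and 1 lower of 17 Cyp4, 4 higher of 20 Cyp6, 0 of 5 Cyp12 and 1 higher of 21 others. For the 5 Cyp12 genes limma had 1 unadjusted p under 0.05. The probe set shared by Cyp12d1-d and Cyp12d1-p, outside these counts, was called higher (log2 2.67, adjusted p = 0.0429). This contrast uses all 12 arrays and so shares them with the contrasts above.

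**Figure D3:**
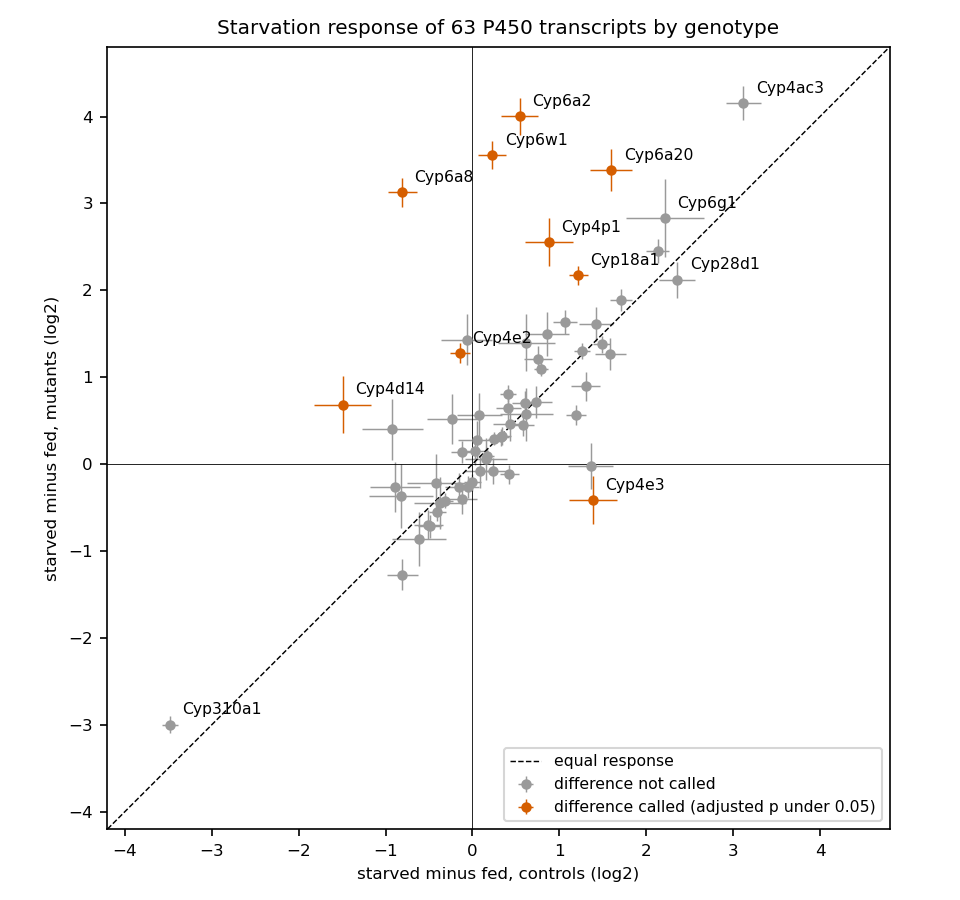
Log2 difference between starved and fed larvae in controls (horizontal axis) and mutants (vertical axis) for the 63 P450s, with standard errors as bars and the line of equal response dashed. The 9 genes with a called difference of responses are orange, 8 above the line and Cyp4e3 below it.

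The direction of the response was opposite in Cyp6a8. It had values of 1206, 1042 and 959 in control fed and 679, 562 and 586 in control starved arrays, and so fell on starvation (log2 -0.81 ± 0.17, adjusted p = 0.0014). In mutants it went from 1184, 1048 and 1333 to 8290, 9841 and 13514 and rose (log2 3.13 ± 0.17, adjusted p = 7.22e-08). The fed groups overlapped, the starved groups lay on either side of them, and the responses differed by log2 3.94 ± 0.24 (adjusted p = 3.16e-05). It was the 1 P450 that fell in controls and rose in mutants.

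Cyp6a2 rose in both genotypes, from 301, 244 and 280 to 426, 309 and 481.5 in controls (log2 0.54 ± 0.21, adjusted p = 0.0376) and from 337.5, 328 and 390.5 to 5157, 4387 and 7847 in mutants, 16.01-fold higher (SE of 0.21 on the log2 scale, adjusted p = 6.49e-08). Its rise in controls lost its call without control fed replicates 2 or 3 or control starved replicates 1 or 3, with adjusted p from 0.0616 to 0.14, and was log2 1.23 in the series matrix. The responses of Cyp6a2 differed by log2 3.46 ± 0.30 (adjusted p = 0.000233) and those of Cyp6w1, which changed by 0.23 ± 0.16 in controls and 3.55 ± 0.16 in mutants, by 3.33 ± 0.23 (5.79e-05). Cyp4e2 changed by log2 -0.14 ± 0.12 in controls and 1.28 ± 0.12 in mutants, a difference of 1.42 ± 0.17 (adjusted p = 0.00229). These 3 genes and Cyp6a8 kept their called difference of responses under every setting tried.

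The other called differences of responses were log2 2.18 ± 0.46 for Cyp4d14 (adjusted p = 0.0390), 1.79 ± 0.34 for Cyp6a20 (0.0244), 1.67 ± 0.39 for Cyp4p1 (0.0471), 0.96 ± 0.15 for Cyp18a1 (0.0119) and -1.80 ± 0.39 for Cyp4e3 (0.0409). Cyp4d14 had values of 812, 754 and 609.8 in control fed and 1147, 761 and 842 in mutant fed larvae, so that all starved control arrays lay below the fed range and 2 of 3 starved mutant arrays above it. Its fall in controls was called (log2 -1.49 ± 0.33, adjusted p = 0.00209) and its change in mutants was not (0.69 ± 0.33, adjusted p = 0.0768). Cyp4e3 had values of 225, 278 and 242 in control fed and 261, 237 and 237 in mutant fed larvae, and rose in controls (log2 1.39 ± 0.28, adjusted p = 0.0011), with -0.42 ± 0.28 in mutants (adjusted p = 0.188). In the series matrix the Cyp4e3 rise in controls was log2 3.19. Cyp18a1 rose in both genotypes, from 599, 606 and 529 to 1212, 1322 and 1501 in controls (log2 1.22 ± 0.11) and from 525, 513 and 565 to 2174, 2324 and 2768 in mutants (2.17 ± 0.11).

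The 5 calls in the paragraph above were the less stable part of this result. With the series matrix 4 P450s were called, all higher, and each of these 5 lost its call. Without control fed replicate 3 the count was 16 (13 higher and 3 lower), and without mutant fed replicate 3 or control starved replicate 2 it was 5 (all higher). Without both fed arrays that were low in most P450s it was 8, with Cyp4d14, Cyp4e3 and Cyp4p1 no longer called and Cyp4ac3 and Cyp4d2 added.

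**Figure D4:**
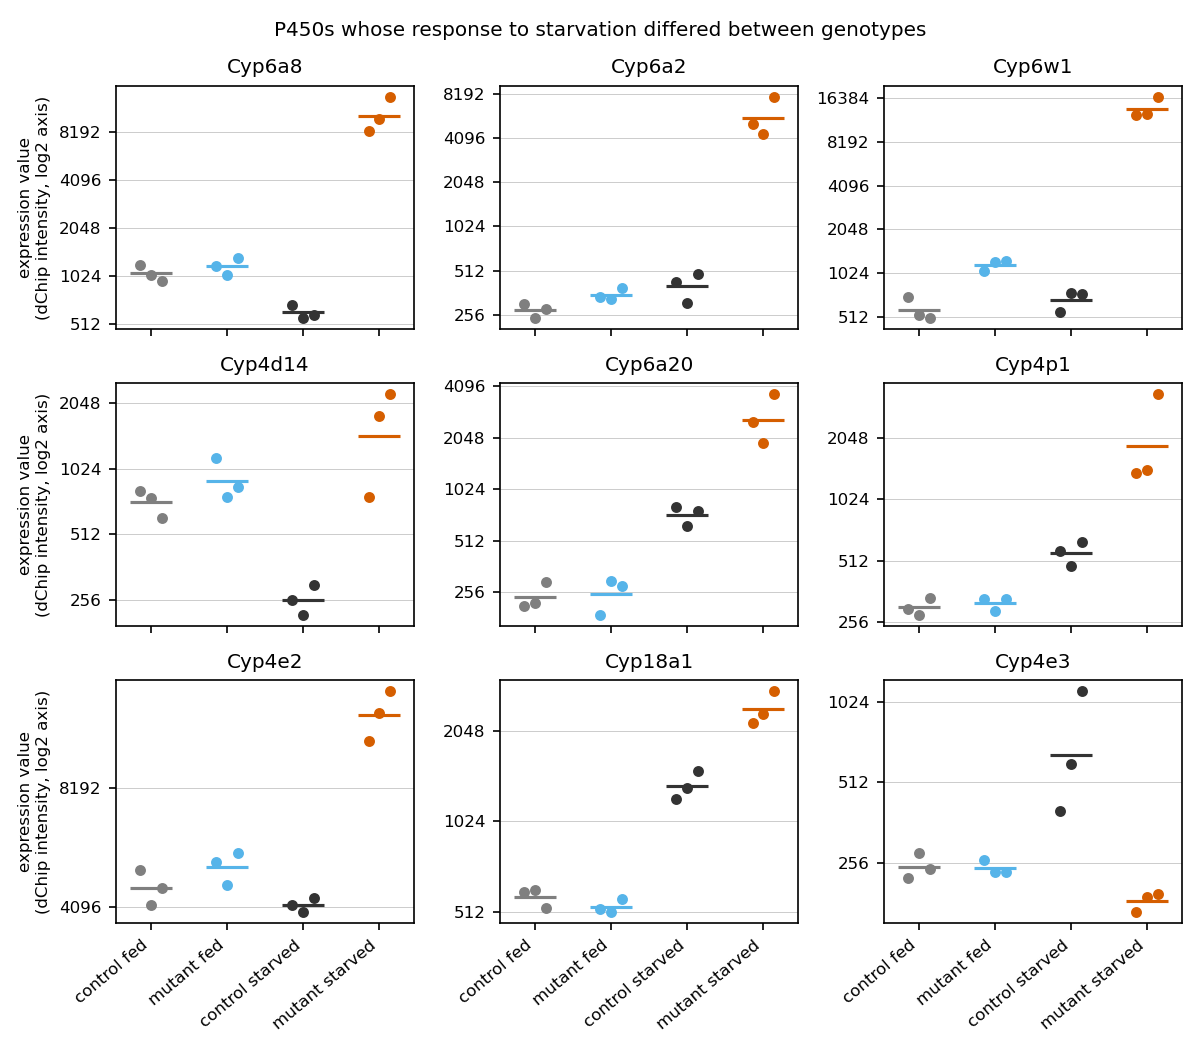
Expression value (dChip intensity, log2 axis) of the 9 P450s with a called difference of responses in each array, by group; points are arrays and lines are means of the log2 values. In 8 genes the mean of the mutant starved arrays is the highest (in Cyp4d14 replicate 1 lies within the fed range), and in Cyp4e3 it is the lowest.

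Many P450 genes of the fly lie beside each other in the genome, where copies arose in tandem. The annotation holds 15 runs of adjacent P450 genes, and 10 of them have at least 2 members in the main table. The longest run, on arm 2R, is Cyp6a22, Cyp6a17, Cyp6a23, Cyp6a19, Cyp6a9, Cyp6a20, Cyp6a21, Cyp6a8 and Cyp317a1, all 9 measured. Their log2 differences between starved mutants and starved controls were, in that order, 0.40, 0.15, 0.26, 0.21, 0.21, 1.84, 1.23, 4.09 and -0.46, and only Cyp6a20 and Cyp6a8 were called. On starvation in controls the same genes had differences of 0.75, 1.71, 0.05, 1.07, 2.13, 1.60, -0.92, -0.81 and -0.81. Of these, Cyp6a8 was called lower and Cyp6a22, Cyp6a17, Cyp6a19, Cyp6a9 and Cyp6a20 higher, while the direction of Cyp317a1 is not settled and the call of Cyp6a21 was unstable.

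Other runs were also uneven. In the run Cyp4p2, Cyp4p1 and Cyp4p3 on 2R the starved genotype differences were log2 0.20, 1.75 and 0.30, with the middle gene called. In Cyp4d14, Cyp4d2 and Cyp4ae1 on X they were 2.50, 1.08 and 0.13, with the first 2 called. In Cyp28d2 and Cyp28d1 on 2L they were -1.01 and 0.06, and both rose on starvation in controls (1.36 and 2.36). Cyp4ac1 and Cyp4ac3, on 2L, had starvation differences of log2 -0.12 and 3.12 in controls and -0.40 and 4.16 in mutants. Differences between neighbours were not tested. Probe sets of such similar genes can bind each other's transcripts, which was not tested here, so values of single members are uncertain.

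**Figure D5:**
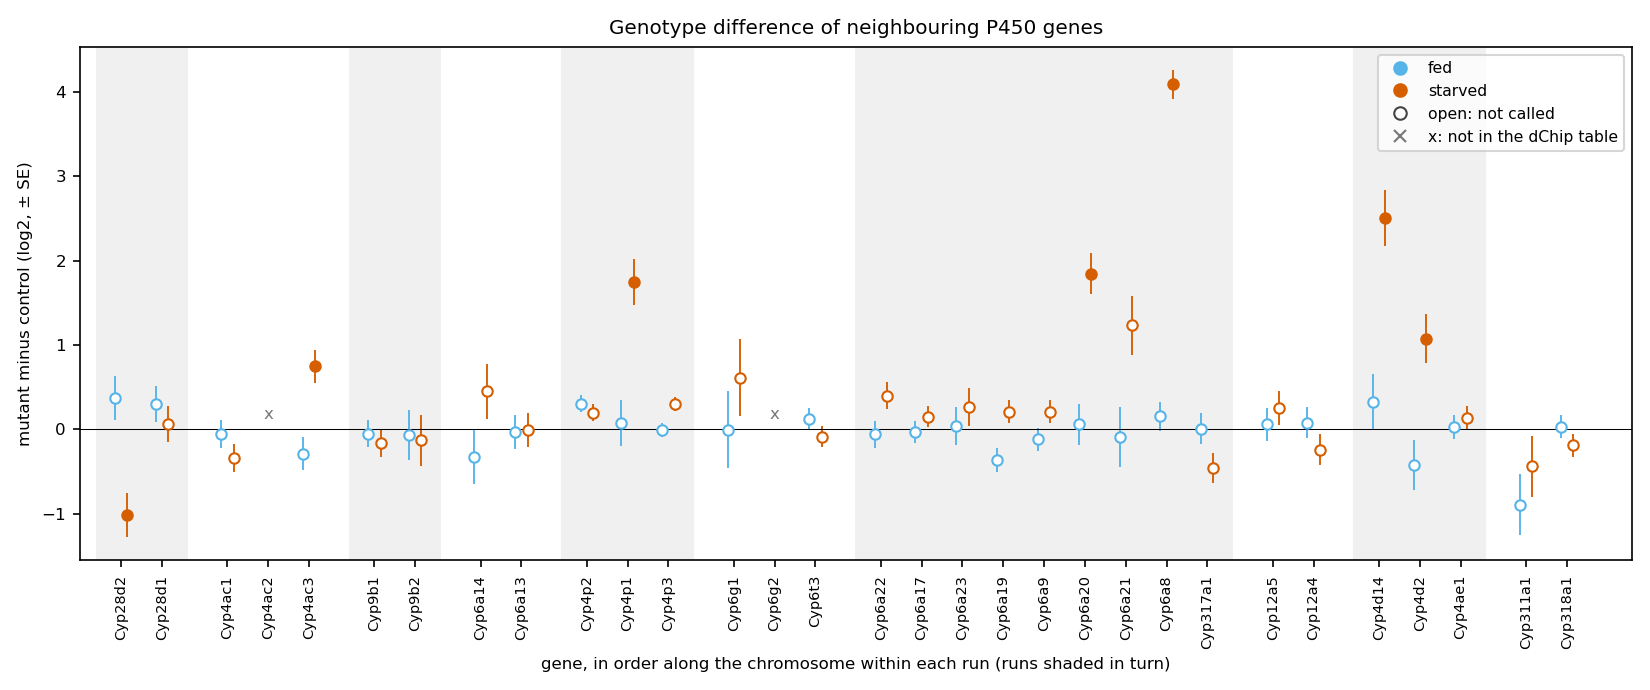
Log2 difference between mutants and controls in fed (blue) and starved (orange) larvae, with standard errors, for the P450 genes of the 10 runs with at least 2 measured members, in chromosomal order; filled points were called and crosses mark genes absent from the main table. In the longest run the starved difference is 4.09 for Cyp6a8 and between 0.15 and 0.40 for the first 5 genes.

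P450s that bear other names include the Halloween enzymes, which build ecdysone in the prothoracic gland. Of the 8 genes listed for this synthesis (nvd, sro, spo, spok, phtm, dib, sad and shd, not all of them P450s) 5 were measured. Between genotypes limma called 0 of the 5 on either diet, with 1 unadjusted p under 0.05 on each. Of all probe sets 1.05% were called between genotypes in fed and 7.61% in starved larvae. On starvation in controls phtm, sad, spok and sro fell (log2 -0.62, -0.42, -1.07 and -0.74) and shd, which acts outside the gland, rose (0.52). In mutants phtm, sad and sro fell (log2 -0.56, -0.34 and -0.79) and shd rose (0.70). The list's median was -0.624 in controls and -0.564 in mutants, and 32.1% and 38.3% of all probe sets were called lower. Cyp18a1, which acts at the other end of the pathway, thus rose on starvation in both genotypes while the measured genes of the gland were lower or not called.

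Genes of electron transfer and of heme synthesis were listed too. Cyt-b5-r was listed by its name, and nothing here shows that it passes electrons to P450s. Of 13 listed genes 8 were measured, the P450 reductase Cpr not among them. In starved mutants 1 of the 8 rose and 0 fell, where 3.91% of all probe sets were called higher and 3.70% lower. The gene that rose was Cyt-b5, the cytochrome b5, with values of 5356, 4873 and 5197 in starved controls and 6270, 6347 and 7352 in starved mutants (log2 0.37 ± 0.08, adjusted p = 0.0200). Cyt-b5-r went from 3983, 4272 and 5856 to 9596, 9965 and 10360 on starvation in controls and from 6456, 5262 and 6985 to 7239, 7783 and 6018 in mutants. It thus rose in controls (log2 1.10 ± 0.15), and the responses differed by log2 -0.93 ± 0.22 (adjusted p = 0.0493). It was the 1 of 8 with a called difference of responses, where 1.82% of all probe sets were called higher and 0.765% lower. The heme synthesis genes Pbgs, FeCH, Coprox and Urod fell on starvation in both genotypes (log2 -1.13, -0.49, -0.81 and -0.88 in controls and -1.42, -0.79, -1.20 and -0.78 in mutants), and Alas rose in mutants (0.46). So 5 of 8 members fell in controls and 4 in mutants, with 1 rising in each (median log2 -0.484 and -0.419), where 32.1% and 38.3% of all probe sets were called lower.

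Of 13 listed regulators of the response to foreign compounds and of P450 genes, 11 were measured. Between genotypes 0 were called in fed larvae (2 at an unadjusted p under 0.05), and in starved larvae only Hnf4 was, higher in mutants (log2 0.70 ± 0.08, adjusted p = 0.000396). Of all probe sets 1.05% were called between genotypes in fed and 7.61% in starved larvae. Neither cnc, the fly's Nrf2, which drives antioxidant and detoxification genes, nor its partner maf-S was called between genotypes in starved larvae (log2 0.17 ± 0.09 and 0.24 ± 0.09, adjusted p = 0.322 and 0.126). On starvation 7 of 11 rose and 1 fell in controls, and 10 rose and 1 fell in mutants (median log2 0.422 and 0.592), where 36.1% and 37.5% of all probe sets were called higher and 32.1% and 38.3% lower. cnc had values of 2774, 2232 and 2413 in control fed and 4836, 4964 and 4664 in control starved arrays, and rose by log2 0.97 in controls and 1.16 in mutants. maf-S rose by 1.13 and 1.48, and the nuclear receptor Hr96, tied to xenobiotic responses, by 0.42 and 0.59. The regulator that fell in both was Hr38 (log2 -1.49 and -1.64).

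Markers of tissues known to express P450s moved as follows in the starved genotype comparison, where 3.91% of all probe sets were called higher and 3.70% lower. Of 2 measured fat body and 7 measured midgut markers 0 were called (0 and 1 at an unadjusted p under 0.05). Of 4 Malpighian tubule markers NaPi-T fell (log2 -0.52, adjusted p = 0.00329) and the others were not called, and of 3 oenocyte and 4 prothoracic gland markers 0 were called (1 of each at an unadjusted p under 0.05). The summed value of the oenocyte markers was 2290 to 2520 in starved controls and 1976 to 2407 in starved mutants, and that of the gland markers 571 to 707 and 526 to 722. The summed value of the tubule markers was 3027 to 3226 in starved controls and 2855 to 3381 in starved mutants, and that of the midgut markers 78423 to 82840 and 82747 to 86731. The fat body sums were 16732 to 18220 and 13960 to 19104. On starvation, where 40 P450s were called in each genotype, tissue markers were called too. Of all probe sets 36.1% were called higher and 32.1% lower in controls, and 37.5% and 38.3% in mutants. The fat body gene apolpp fell by log2 0.39 in controls and 0.51 in mutants. Lsp2 was not called (log2 -3.70 ± 1.54, adjusted p = 0.0506 in controls, and -2.25 ± 1.54, 0.199 in mutants). Its values were 330.6, 369.5 and 327.8 in control starved and 287.3, 374 and 304.7 in mutant starved arrays. Its fed values spanned 290.4 to 18373 in controls and 328.5 to 13857 in mutants. Among midgut markers 1 of 7 rose in each genotype, namely alphaTry (log2 1.73 and 1.54), and 1 fell in mutants, Mal-A1 (-0.74). Among tubule markers Best2 rose (log2 0.87 and 1.36) and NaPi-T fell (-0.56 and -0.78). All 3 oenocyte markers fell in both genotypes, and 4 of 4 gland markers fell in controls and 3 of 4 in mutants. These gland markers (phtm, sad, spok and sro) are genes already counted above under ecdysone synthesis. The parts of tissue composition and of developmental stage in the P450 differences were not tested.

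The cyclophilins that the symbol rule took in differed between genotypes by log2 0.00 ± 0.07 and 0.01 ± 0.09 (Cyp1 and Cyp40, fed) and -0.14 ± 0.07 and -0.18 ± 0.09 (starved), and neither was called. Cyp1 had values of 18837 to 19256 in control fed and 8896 to 9232 in control starved arrays, and fell on starvation by log2 -1.07 in controls and -1.21 in mutants. Cyp40 had values of 427 to 500.2 in control fed and 562 to 585 in control starved arrays (log2 0.27, adjusted p = 0.0246).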

How the data were processed

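Total RNA of whole larvae was labelled with the one-cycle biotin method and hybridised to Affymetrix Drosophila Genome 2.0 arrays, per the labels. The main table holds linear intensities per probe set, which per the file header were dChip-normalized by the authors and kept for Present probe sets only; the dChip version, model and rule for Present calls are not given in the sources used here. The series matrix holds intensities of 18769 probe sets of the same arrays as deposited, with the processing not stated, and served as an alternative; 183 control probe sets were left out of it. Gene symbols came from the platform annotation, updated through RefSeq, in which all 65 members were found.

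Values under 16 were raised to 16 and log2 was taken. limma (version 3.58.1, R 4.3.3) fitted 1 mean per group over all 12 arrays (8 residual and 3.12 prior degrees of freedom), with Benjamini-Hochberg adjustment over 9669 probe sets in each of 5 contrasts and a threshold of 0.05. The fit was tested on simulated data. Of a gene's probe sets the one with the highest mean was used. Arrays limit precision by their number (3 per group).

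The plan was to give array values and full statistics for members called between genotypes or in the difference of responses (up to 12 per contrast). It also covered the 5 largest rises and falls on starvation, the highest member of each subfamily and neighbours of the called members. For some of these, such as Cyp6a17 and Cyp28d1, only part of the values or statistics is printed. Other members were named after their values were seen. Members and gene lists were chosen with earlier results of these data known.

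The alternatives were the other table, other floors, quantile normalization, median centring, a filter on dim probe sets, a replicate block, the compared groups alone, eBayes with trend and robust, array weights, the mean of a gene's probe sets, and leaving out each array; leaving out pairs of arrays was chosen after seeing the data. Replicate numbers recur in every group, but arrays of the same number did not deviate together (r of deviations from the group means between -0.40 and 0.28), so they were not taken as pairs. Sequences and promoter motifs were not analysed here.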

Additional observations from a re-analysis of the deposited data

Results flagged for a closer look

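The response to starvation differed between genotypes, by the test of the difference itself, in 9 P450s. The differences (mutant response minus control response, log2) were 3.94 for Cyp6a8, 3.46 for Cyp6a2, 3.33 for Cyp6w1, 2.18 for Cyp4d14, 1.79 for Cyp6a20, 1.67 for Cyp4p1, 1.42 for Cyp4e2, 0.96 for Cyp18a1 and -1.80 for Cyp4e3. Those of Cyp6a8, Cyp6a2, Cyp6w1 and Cyp4e2 kept their call under every setting tried, and each of the others lost it at least in the series matrix.

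A pair of probe sets outside the counts also differed between starved mutants and starved controls. The probe set shared by the near-identical copies Cyp12d1-d and Cyp12d1-p, left out because it carries 2 symbols, had values of 217, 150.2 and 184 in starved controls and 543, 1508 and 2196 in starved mutants, 2.74 higher on the log2 scale (adjusted p = 0.00272). On food it had 128, 130 and 81.1 in control arrays and 124, 85.7 and 146 in mutant arrays, which overlapped, and its responses differed by log2 2.67 (adjusted p = 0.0429). Cyp12d1-d has a probe set of its own in the series matrix, which was not called in starved larvae (log2 1.58, adjusted p = 0.135). Cyp6v1, by its own probe set in the series matrix, had values of 265, 257 and 233 in starved controls and 380, 370.3 and 561.5 in starved mutants, 0.77 higher (adjusted p = 0.0402). The main table holds a probe set shared by shn and Cyp6v1, which was not called in the same comparison (log2 0.23, adjusted p = 0.254).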

How the results depend on the processing

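Over 106 called P450 differences and their alternatives, 2609 values were compared, of which 2448 kept direction and call, 157 kept direction without the call and 4 reversed; 68 differences kept direction and call under every alternative run. The 4 reversals were those of Cyp317a1 (1.31 in controls and 1.14 in mutants, log2, on starvation) and Cyp6a16 (0.58 and 0.96) in the series matrix. The count of P450s called between genotypes in fed larvae (2) was 1 in the series matrix, 1 with the compared groups alone, 4 without both arrays of lowest weight (control fed 3 and mutant starved 2) and 1 to 5 when single arrays were left out. In starved larvae it was 23 rather than 15 with array weights (14 higher and 9 lower). On starvation it was 26 rather than 40 in each genotype without the dimmest 40% of probe sets, where 42 P450s were tested. The count for the difference of responses (9) was 4 in the series matrix, 15 with array weights, 16 without both arrays of lowest weight, and 5 to 16 when single arrays were left out. The causes were not tested, except that the filter tested fewer genes. With the replicate block the counts were 2, 13, 39, 41 and 7, in the order in which the report gives the comparisons. In the difference of responses the block ended the calls of Cyp4d14 and Cyp4e3 (adjusted p = 0.0726 and 0.0529). Between genotypes in starved larvae it ended those of Cyp28d2 and Cyp4d2. The labels do not say whether the numbers pair the arrays. With median centring 59.8% of all calls for the difference of responses were higher, against 70.4%, and in the series matrix 64.6% on starvation in controls, against 52.9%, and 61.3% in mutants, against 49.5%. Median centring took the median of all probe sets on starvation in mutants to -0.170 from -0.042, and the series matrix took that in controls to 0.137 from 0.031. The 6 P450s dim in every group limit what a small difference can show.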

Other observations

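The 18 P450 symbols without a probe set of their own in the main table were read from the series matrix. None of them was called between genotypes in fed larvae by limma (1 had an unadjusted p under 0.05), where 63 of 18769 probe sets of the series matrix were. In starved larvae Cyp6v1 was the 1 called, where 376 of 18769 probe sets of the series matrix were. On starvation Cyp6u1 rose in controls, where 5315 of 18769 probe sets were called in either direction. In mutants Cyp12d1-d, Cyp4e1, Cyp6v1 and Cyp9h1 rose and Cyp4ad1 fell (log2 -1.70), where 5922 of 18769 were called. Cyp12d1-d had values of 4.5, 26.9 and 4.8 in mutant fed arrays, around the floor of 16. Cyp4e1 had 8.4, 51.7 and 21.4 in mutant fed and 49.7, 61.8 and 78.1 in mutant starved arrays, which overlapped.

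Of the 63 P450s, 16 were called in no contrast, and the matching share of all probe sets was not computed. Cyp12e1 and Cyp18a1 had a second probe set each. That of Cyp12e1 rose on starvation by log2 0.81 in controls and 0.88 in mutants, against 0.73 and 0.71 for the first. That of Cyp18a1 rose by 0.80 and 1.47, against 1.22 and 2.17, and its difference of responses (0.67) missed the threshold (adjusted p = 0.0645).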
